A study of Homo sapiens with 12 samples.

Results

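The genes described here encode 4 families of actin-binding proteins in MDA-MB-231 cells: the tropomyosins TPM1, TPM2, TPM3 and TPM4, the transgelins TAGLN and TAGLN2, the calponins CNN2 and CNN3, and the non-muscle alpha-actinins ACTN1 and ACTN4. They were chosen by gene symbol as 10 of the 60234 genes in the count table, and all 10 were among the 22668 genes with enough reads to be tested. MDA-MB-231 is an established human breast cancer line of the triple-negative class, a class without receptors for estrogen and progesterone and without amplified HER2. The study compared fast cells, captured on the basis of the trajectory along which they moved, with parental cells of the same line, to which the labels give no treatment. Each population has 3 RNA-seq libraries in each of 2 batches, which the series calls technical replicates of 2 biological replicates. Nothing says that the libraries of a batch came from separate captures or cultures, so p-values measure how far libraries spread, and that spread may be technical only.

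Tropomyosins are coiled-coil dimers that lie end to end along actin filaments and decide which other proteins, myosins and severing factors among them, can reach the filament. Alpha-actinins are antiparallel dimers that cross-link filaments in stress fibres and at focal adhesions. Transgelins and calponins share a calponin homology domain, bind along filaments and are classically known from smooth muscle. Many genes of contractile filaments, several of these families included, are known targets of serum response factor (SRF), which binds a DNA element called the CArG box and works with cofactors that sense the pool of free actin.

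Levels are given in CPM, the reads of a gene scaled to a fixed library total, with library sizes adjusted by TMM, a method that corrects for differences in RNA composition. The 12 libraries held 53267145 to 75944907 counts, of which mitochondrially encoded genes took 2.08% to 3.41%. The line marker VIM averaged 6790 CPM in fast and 5137 CPM in parental libraries (unscaled by TMM), the epithelial cadherin CDH1 reached at most 4 counts in a library, and the estrogen receptor ESR1 averaged 0.136 CPM in fast and 0.141 CPM in parental libraries. The 12 pairs of libraries within a group differed by more than counting error, with indices of dispersion of 3.41 to 8.78. Each library was counted as its own, but such spread can be technical and does not make the libraries of a batch independent. Each n given below counts libraries, not biological replicates.

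Of the 10 genes, 7 were lower in fast cells in both batches. TPM2 was slightly higher over both batches together, and CNN2 and ACTN4 did not pass the test over both batches. The 10 genes together took 0.405% to 0.419% of all counts in fast libraries and 0.522% to 0.547% in parental libraries, with no overlap between the populations. With edgeR's quasi-likelihood test and a threshold of 0.05 on the adjusted p, 8 of the 10 genes changed over both batches, beside 63.4% of all genes tested. Of these, 1 rose (31.9% of all genes tested did) and 7 fell (31.5% of all genes tested did). Within batch 2, 8 of the 10 were called, all lower, where 56% of all genes were called and 28.6% were called lower. Within batch 1, 7 were called, all lower, where 56.1% of all genes were called and 27.1% were called lower. The 7 that fell in both batches were TPM1, TPM3, TPM4, TAGLN, TAGLN2, CNN3 and ACTN1, and of all genes tested 46% were called with the same sign in each batch, 23% as lower. In these 7, all 3 fast libraries lay below all 3 parental libraries in each batch. Of all genes tested, 61.2% were so separated in batch 2, 60.5% in batch 1 and 47.9% in the same direction in both. The median log2 fold change of the 10 genes was -0.33 over both batches, against 0.01 for all genes tested, whose median absolute change was 0.32. In such bulk libraries, fewer cells that use a gene and less RNA per cell cannot be told apart.

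**Figure D1:**
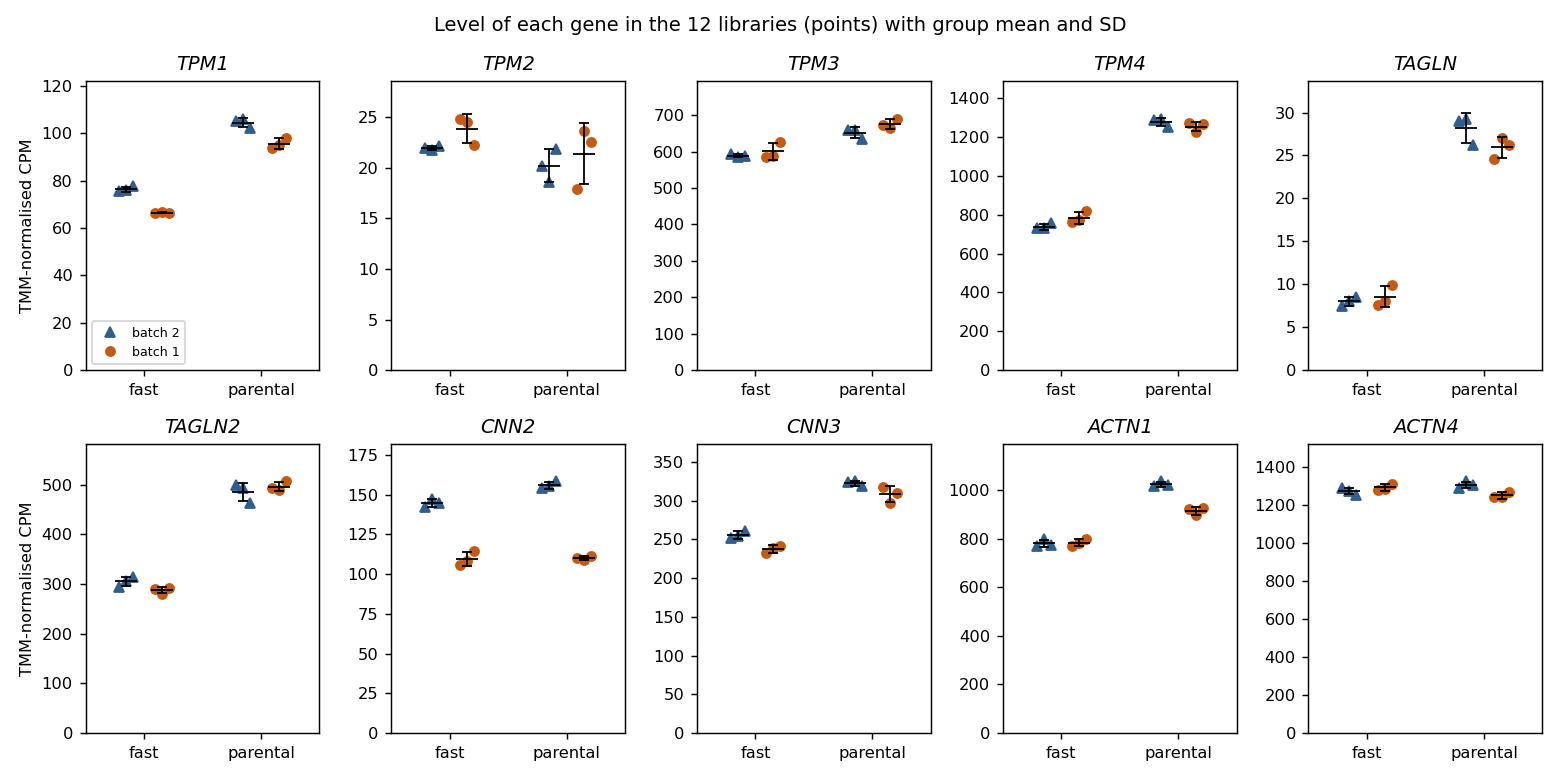
TMM-normalised CPM of each gene (vertical axis from 0) in fast and parental libraries, with batch 2 as triangles and batch 1 as circles, and the mean and SD of each group of 3 libraries. TAGLN, TPM4 and TAGLN2 show the widest gaps between the populations, ACTN4 has no called difference, and CNN2 is split by batch rather than by population.

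Promoters are shown because 3 of the genes carry a CArG box, the element that SRF binds, close to an annotated start. Windows of 300 bases (250 before and 50 after a transcription start) came from RefSeq on GRCh38.p14 and were matched for 9 of the 10 genes, all but TAGLN, as 20 windows. Both strands were searched for exact matches only, so variants of a site were not counted. The CArG box was taken as CC, a run of A or T, and GG. The other patterns were GGAATG (a site of TEAD factors), TATAAA (the TATA box) and TGACTCA (a site of AP-1). The CArG box was found in 3 of the 20 windows, 1 each of TPM4, CNN2 and ACTN1, and in 1.29% of the 35116 windows in the table. The other windows of TPM4 and ACTN1 held none. The TPM4 window with the box lies upstream of the others of that gene, which begin at chr19:16076245 and chr19:16076766. Counts per gene do not tell which start the cells used. Its first base lay 173 bases before the start in TPM4, 89 bases before it in CNN2 and 171 bases before it in ACTN1. The 3 windows follow 5′ to 3′ on the strand of the gene, with the CArG box in capitals. They lie at chr19:16067288-16067587 (plus strand) for TPM4, chr19:1026358-1026657 (plus strand) for CNN2 and chr14:68977517-68977816 (minus strand) for ACTN1.
TPM4: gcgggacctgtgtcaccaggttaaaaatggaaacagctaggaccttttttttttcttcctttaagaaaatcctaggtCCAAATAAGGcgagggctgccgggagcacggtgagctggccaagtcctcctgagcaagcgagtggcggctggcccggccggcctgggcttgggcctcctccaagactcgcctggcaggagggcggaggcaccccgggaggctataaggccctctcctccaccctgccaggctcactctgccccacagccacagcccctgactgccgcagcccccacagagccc
CNN2: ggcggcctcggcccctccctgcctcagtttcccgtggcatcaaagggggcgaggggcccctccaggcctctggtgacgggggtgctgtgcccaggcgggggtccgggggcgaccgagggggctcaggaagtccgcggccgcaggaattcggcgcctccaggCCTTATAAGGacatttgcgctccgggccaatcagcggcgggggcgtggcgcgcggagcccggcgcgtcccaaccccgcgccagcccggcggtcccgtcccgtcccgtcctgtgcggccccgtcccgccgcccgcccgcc
ACTN1: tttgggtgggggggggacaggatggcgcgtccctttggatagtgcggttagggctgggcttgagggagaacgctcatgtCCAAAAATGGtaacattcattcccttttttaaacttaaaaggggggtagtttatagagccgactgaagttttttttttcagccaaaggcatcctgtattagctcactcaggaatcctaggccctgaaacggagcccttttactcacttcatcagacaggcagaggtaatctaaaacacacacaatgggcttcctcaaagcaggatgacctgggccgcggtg
The window of CNN2 was the richest in G and C, at 77.0%, beside 63.0% in TPM4 and 49.3% in ACTN1. The other motifs were as common among all windows as 14.0% for GGAATG (in CNN3 and ACTN1), 11.5% for TATAAA (in ACTN1) and 4.95% for TGACTCA (in 2 windows of TAGLN2). In the ACTN1 window the CArG box, GGAATG and TATAAA did not overlap. GGAATG and TATAAA lay there on the opposite strand, so the printed window reads cattcc 154 and tttata 122 bases before the start.

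The tropomyosins fell in fast cells except for TPM2, and TPM4 fell the most. TPM4 (ENSG00000167460, chromosome 19) encodes a short cytoplasmic tropomyosin of non-muscle cells. In the 3 libraries of batch 2 it stood at 730.2, 730.2 and 756 CPM in fast libraries, against 1286, 1294 and 1251 CPM in parental libraries. Its batch 1 values were 762, 772 and 819 CPM in fast libraries, against 1271, 1225 and 1266 CPM in parental libraries. The highest fast library was thus far below the lowest parental one. Over both batches TPM4 averaged 762 ± 32.8 CPM in fast and 1265 ± 24.9 CPM in parental libraries (SD, n = 6 each), a log2 fold change of -0.73 ± 0.03 (SE; adjusted p = 7.00e-23), or 1.66-fold lower. The log2 fold change was -0.79 in batch 2 and -0.68 in batch 1, and the difference of -0.11 was not called (adjusted p = 0.126).

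TPM1 (ENSG00000140416, chromosome 15), which encodes long tropomyosins of stress fibres and of striated and smooth muscle, also fell. Its batch 2 values were 75.4, 76.1 and 77.6 CPM in fast libraries, against 105, 106 and 102 CPM in parental libraries. Batch 1 gave 66.3, 66.6 and 66.2 CPM in fast libraries, against 93.9, 94.8 and 98.1 CPM in parental libraries. Every fast library lay below every parental library, also across batches. The averages were 71.4 ± 5.53 CPM in fast and 100.02 ± 5.20 CPM in parental libraries (SD, n = 6 each), a log2 fold change of -0.49 ± 0.03 (SE; adjusted p = 3.05e-17), with -0.45 in batch 2 and -0.53 in batch 1.

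TPM3 (ENSG00000143549, chromosome 1) encodes the tropomyosin of slow skeletal muscle fibres and, from another promoter, short forms found in nearly all cells. Its fall was small beside that of TPM4. Batch 2 gave 594, 586 and 586 CPM in fast libraries, against 659.7, 660.2 and 635 CPM in parental libraries. Batch 1 gave 586, 589 and 626 CPM in fast libraries, against 672, 665 and 690.0 CPM in parental libraries. The populations did not overlap in either batch. The means were 595 ± 15.7 CPM in fast and 664 ± 18.1 CPM in parental libraries (SD, n = 6 each), and the log2 fold change of -0.16 ± 0.02 (SE) had an adjusted p of 4.59e-07.

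TPM2 (ENSG00000198467, chromosome 9) encodes beta-tropomyosin, a long form of muscle and stress fibres, and was the 1 gene of the set with a higher call. In batch 2 it had 21.9, 21.7 and 22.1 CPM in fast libraries, against 20.2, 18.6 and 21.8 CPM in parental libraries. Batch 1 gave 24.8, 24.5 and 22.2 CPM in fast libraries, against 17.9, 23.6 and 22.5 CPM in parental libraries. The populations overlapped in both batches. The means of 22.9 ± 1.403 CPM in fast and 20.8 ± 2.26 CPM in parental libraries (SD, n = 6 each) gave a log2 fold change of 0.14 ± 0.05 (SE; adjusted p = 0.0255). The effect was called in neither batch alone (log2 fold change 0.12 with adjusted p = 0.171 in batch 2, and 0.16 with adjusted p = 0.0614 in batch 1). The call over both batches was lost without parental batch 1 replicate 1 (adjusted p = 0.0746), without parental batch 2 replicate 2 (adjusted p = 0.0502) and when the 3 libraries of each group were summed (adjusted p = 0.122).

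The transgelins fell together, and TAGLN fell more than any other gene of the set. TAGLN (ENSG00000149591, chromosome 11) is an early marker of smooth muscle differentiation. TAGLN in batch 2 was at 7.44, 8.11 and 8.49 CPM in fast libraries, against 29.1, 29.3 and 26.2 CPM in parental libraries. In batch 1, TAGLN was at 7.65, 8.08 and 9.91 CPM in fast libraries, against 24.6, 27.1 and 26.2 CPM in parental libraries. These levels rested on 500 to 571 counts in each fast library and 1402 to 2119 counts in each parental library, and the 2 ranges were far apart. The log2 fold change was -1.71 ± 0.06 (SE; adjusted p = 1.44e-22), or 3.28-fold lower, with -1.82 ± 0.07 in batch 2 and -1.61 ± 0.08 in batch 1. The difference between batches of -0.21 was not called (adjusted p = 0.313).

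TAGLN2 (ENSG00000158710, chromosome 1), the transgelin of many non-muscle cells, stood far above TAGLN in both populations. In batch 2 it had 295, 305 and 315 CPM in fast libraries, against 499, 493 and 464 CPM in parental libraries. Batch 1 gave 289.6, 280.3 and 292 CPM in fast libraries, against 493, 489 and 507 CPM in parental libraries. No fast library came near the parental range. The means were 296 ± 12.3 CPM in fast and 491 ± 14.6 CPM in parental libraries (SD, n = 6 each), a log2 fold change of -0.73 ± 0.03 (SE; adjusted p = 3.98e-22). It was -0.67 in batch 2 and -0.79 in batch 1. The difference of 0.12 was not called (adjusted p = 0.128), but passed the threshold under 4 other settings, the DESeq2 test among them (adjusted p = 0.0369), and without any 1 of fast batch 2 replicates 1, 2 and 3 or parental batch 2 replicate 3 (adjusted p of 0.00891 to 0.0439).

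**Figure D2:**
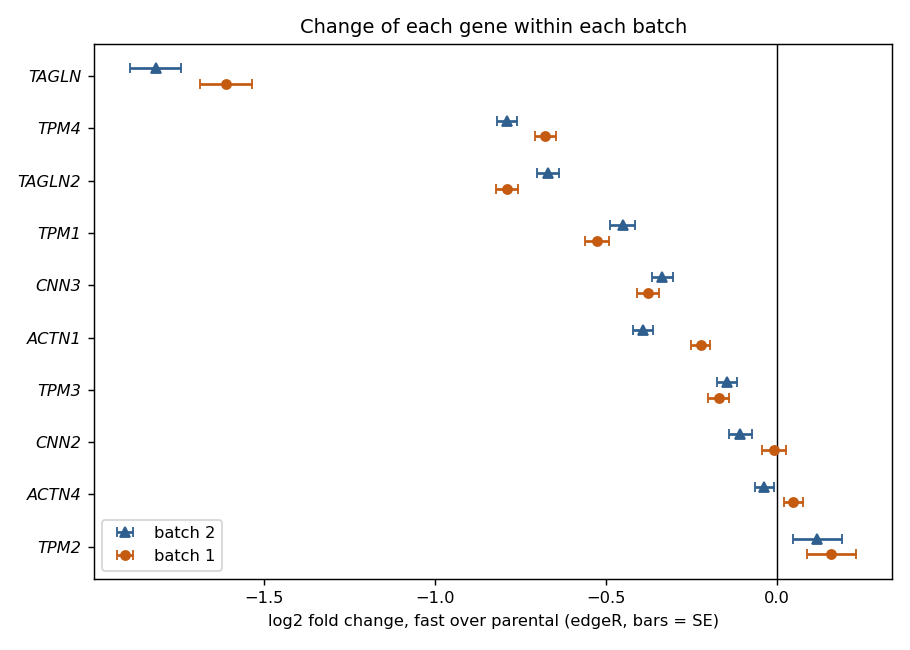
Log2 fold change of each gene, fast over parental (horizontal axis, bars are SE), within batch 2 (triangles) and batch 1 (circles). TAGLN is at -1.82 and -1.61, the other 6 genes called in both batches lie between -0.79 and -0.15, and ACTN1 shows the 1 difference between batches that was called.

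The calponins differed from each other, since CNN3 was lower in fast cells and CNN2 was set mainly by batch. CNN3 (ENSG00000117519, chromosome 1), acidic calponin, is the form of many non-muscle cells. Batch 2 gave 252, 254 and 261 CPM in fast libraries, against 324, 325 and 319 CPM in parental libraries. Batch 1 gave 232, 238 and 242 CPM in fast libraries, against 318, 297 and 310.4 CPM in parental libraries. The populations did not overlap. The means were 247 ± 10.8 CPM in fast and 316 ± 10.3 CPM in parental libraries (SD, n = 6 each), a log2 fold change of -0.36 ± 0.02 (SE; adjusted p = 7.08e-15), with -0.34 in batch 2 and -0.38 in batch 1.

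CNN2 (ENSG00000064666, chromosome 19), the calponin known to respond to mechanical tension, had 142, 147 and 145 CPM in fast libraries of batch 2, against 154, 156 and 158 CPM in parental libraries. In batch 1, CNN2 had 106, 108 and 115 CPM in fast libraries, against 110.5, 109 and 111 CPM in parental libraries. Fast libraries lay below parental ones in batch 2 and overlapped with them in batch 1. The log2 fold change was -0.11 ± 0.03 (SE; adjusted p = 0.00549) in batch 2 and -0.01 (adjusted p = 0.839) in batch 1, and the difference of -0.10 between them was not called (adjusted p = 0.273). Over both batches it was -0.06 ± 0.03 (adjusted p = 0.0581), which passed the threshold with RLE or upper-quartile factors, with a low-count filter at 1 CPM in mean, with DESeq2 and without fast batch 1 replicate 3 (adjusted p of 0.00394 to 0.0260). The batch 2 call was lost with no filter on low counts and without any 1 of fast batch 2 replicates 1, 2 and 3 or parental batch 2 replicate 3 (adjusted p of 0.05004 to 0.0982).

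A comparison of batch 2 with batch 1 within each population was added after the values of CNN2 had been seen. CNN2 averaged 145 ± 2.47 CPM in batch 2 and 109.7 ± 4.57 CPM in batch 1 among fast libraries (SD, n = 3 each), a log2 fold change of 0.40 ± 0.03 (SE; adjusted p = 1.14e-12). Among parental libraries it averaged 156 ± 2.18 CPM in batch 2 and 110.3 ± 1.21 CPM in batch 1, a log2 fold change of 0.50 ± 0.03 (adjusted p = 1.41e-15). The change of CNN2 with batch, 1.32-fold in fast and 1.41-fold in parental libraries, was therefore larger than its difference between the populations. In fast libraries 5 of the 10 genes were called between batches, beside 27.2% of all genes tested: TPM1, TAGLN2, CNN2 and CNN3 were higher and TPM4 lower in batch 2. The call of TPM4 in fast libraries, at a log2 fold change of -0.09 (adjusted p = 0.0294), was lost in 10 of its alternatives. Among them were RLE and upper-quartile factors, no filter, a mean of at least 1 CPM and DESeq2 (adjusted p of 0.0505 to 0.275). The TPM4 call was lost too without fast batch 1 replicate 3, any 1 of the fast batch 2 libraries or parental batch 2 replicate 3. That of TAGLN2 (0.09, adjusted p = 0.0389) was lost without fast batch 1 replicate 1 or 2 or fast batch 2 replicate 3, and that of CNN3 (0.11, adjusted p = 0.00859) without fast batch 1 replicate 1. In parental libraries 3 were called, beside 30% of all genes tested, namely TPM1, CNN2 and ACTN1, all higher in batch 2. TPM1 had a log2 fold change of 0.20 ± 0.04 (adjusted p = 2.25e-05) in fast and 0.13 ± 0.04 (adjusted p = 0.00408) in parental libraries, the second of which was lost with no filter and without fast batch 2 replicate 2. The labels give no more than the number of each batch, beside the series' wording of technical replicates of 2 biological replicates. These p-values between batches rest on the spread among libraries of a batch, which may be technical only.

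The alpha-actinins also differed from each other, with ACTN1 lower in fast cells and ACTN4 not called between the populations. ACTN1 (ENSG00000072110, chromosome 14) is the form most tied to focal adhesions and stress fibres. Batch 2 gave 769, 797 and 776 CPM in fast libraries, against 1018, 1036 and 1020.2 CPM in parental libraries. In batch 1 it had 769, 784 and 798 CPM in fast libraries, against 921, 896 and 928 CPM in parental libraries. Fast libraries took much the same range in both batches, whereas parental libraries were higher in batch 2. The log2 fold change over both batches was -0.31 ± 0.03 (SE; adjusted p = 3.08e-12).

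The effect on ACTN1 was the 1 among the 10 genes that differed between batches, where 5.4% of all genes tested did and 3.65% did so with a more negative effect in batch 2. It was -0.39 ± 0.03 (SE) in batch 2 and -0.22 ± 0.03 in batch 1, a difference of -0.17 ± 0.04 (adjusted p = 0.00623). Between batches ACTN1 moved by a log2 fold change of -0.01 (adjusted p = 0.916) in fast and 0.16 ± 0.03 (adjusted p = 1.63e-05) in parental libraries. Of all genes called for a difference between batches, 32.4% had a more positive effect in batch 2, a share that was 52.4% with RLE factors and 70.2% with no filter on low counts. The call of ACTN1 itself was lost with no filter (adjusted p = 0.185) and without any 1 of fast batch 2 replicates 1, 2 and 3 or parental batch 2 replicate 3 (adjusted p of 0.0560 to 0.185).

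ACTN4 (ENSG00000130402, chromosome 19), the other non-muscle alpha-actinin, had 1291, 1278 and 1257 CPM in fast libraries of batch 2, against 1292, 1326 and 1307 CPM in parental libraries. In batch 1, ACTN4 had 1281, 1288 and 1314 CPM in fast libraries, against 1242, 1244 and 1272 CPM in parental libraries. Fast libraries thus lay just below the parental ones in batch 2 and just above them in batch 1. Neither effect was called, at a log2 fold change of -0.04 ± 0.03 (SE; adjusted p = 0.264) in batch 2 and 0.05 ± 0.03 (adjusted p = 0.149) in batch 1. The means over both batches were 1285 ± 18.4 CPM in fast and 1281 ± 34.1 CPM in parental libraries (SD, n = 6 each; log2 fold change 0.00 ± 0.02, adjusted p = 0.870).

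Levels can be compared between genes only per length of transcript, so the CPM of each gene was divided by the length of its merged exons in GENCODE release 29. ACTN4 led the set on this scale, at 211 CPM per kb in fast and 210.0 CPM per kb in parental libraries. TAGLN2 followed at 119 CPM per kb in fast and 197 CPM per kb in parental libraries, then TPM4 at 88.2 and CNN3 at 86.9 CPM per kb in fast libraries, against 147 CPM per kb for TPM4 and 111 CPM per kb for CNN3 in parental libraries. At these levels more than 96% of the genes tested and annotated lay below ACTN4, TAGLN2, TPM4, CNN3, ACTN1 and TPM3 in both populations. At the low end, TPM2 had 7.04, TPM1 5.54 and TAGLN 2.11 CPM per kb in fast libraries, against 6.40 for TPM2, 7.77 for TPM1 and 6.91 for TAGLN in parental libraries. On this scale TPM2 stood above TPM1 in fast libraries and below it in parental libraries. In CPM, with no division by length, TPM1 was above TPM2 in both populations. TAGLN ranked 11648th in fast and 6800th in parental libraries among the 21551 annotated genes. The merged exons count every annotated transcript, 34 of them for TPM1, so the per-length level of a gene that uses few of its exons is understated.

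The make-up of the families differed between the populations. TPM4 made up 51.4 ± 0.738% of the tropomyosin level per kb in fast libraries, against 61.1 ± 0.723% in parental libraries (SD, n = 6 each, no test). TPM3 made up 41.3 ± 0.562% in fast libraries, against 33.0 ± 0.693% in parental libraries. TPM2 made up 4.10 ± 0.266% in fast libraries, against 2.67 ± 0.310% in parental libraries, while TPM1 held 3.23 ± 0.321% in fast and 3.24 ± 0.160% in parental libraries. The summed tropomyosin level was 172 ± 5.17 CPM per kb in fast libraries, against 239.9 ± 3.52 CPM per kb in parental libraries.

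TAGLN made up 1.75 ± 0.193% of the transgelin level in fast libraries, against 3.38 ± 0.221% in parental libraries, and the transgelin sum was 121 ± 4.95 CPM per kb in fast and 204 ± 5.98 CPM per kb in parental libraries (SD, n = 6 each). ACTN1 made up 25.9 ± 0.324% of the alpha-actinin level in fast libraries, against 30.3 ± 0.829% in parental libraries. The alpha-actinin sums were closer to each other, at 284 ± 3.71 CPM per kb in fast and 301 ± 11.2 CPM per kb in parental libraries. CNN2 made up 30.6 ± 0.478% of the calponin level in fast and 27.4 ± 0.442% in parental libraries of batch 2, and 26.4 ± 0.460% in fast and 21.8 ± 0.462% in parental libraries of batch 1 (SD, n = 3 each). Shares of raw counts, with no division by length, gave TPM4 52.5% in fast and 61.7% in parental libraries and TPM2 1.58% in fast and 1.01% in parental libraries, so the direction of both stood.

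**Figure D3:**
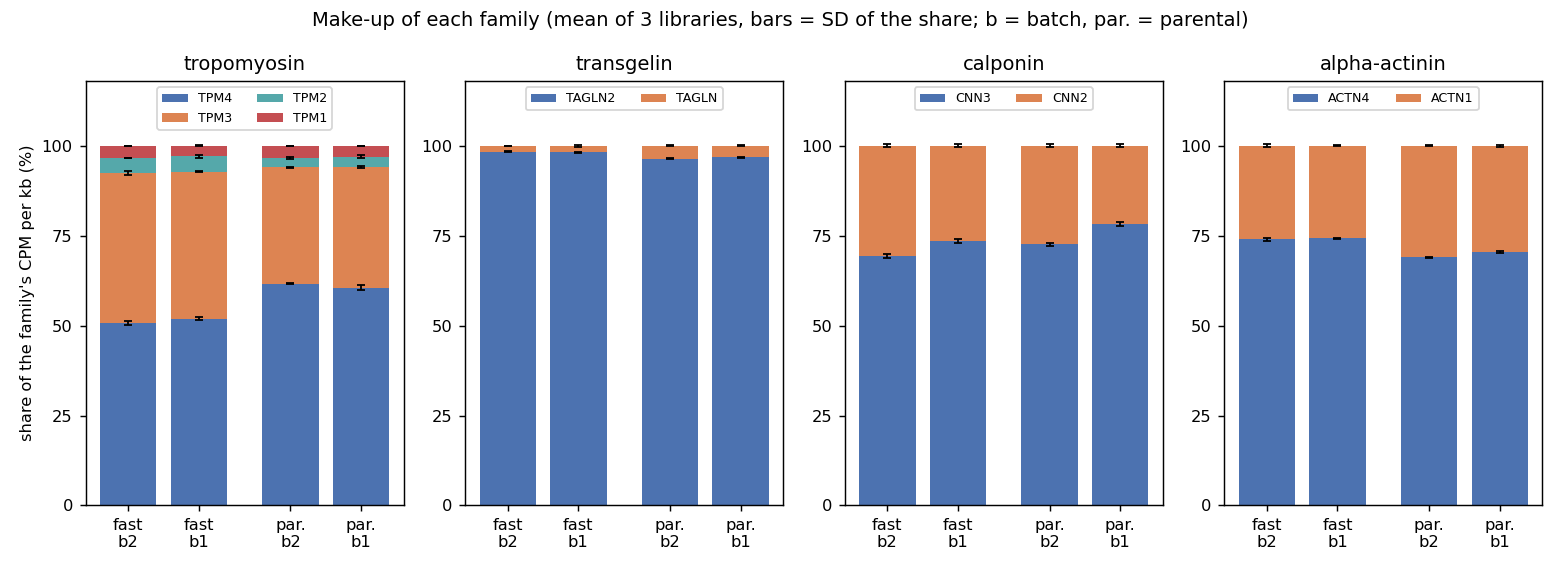
Share of each gene in the summed CPM per kb of its family (vertical axis, percent, bars stacked from 0) in fast and parental libraries of batch 2 (b2) and batch 1 (b1), as means of 3 libraries with the SD of each share. TPM4 falls to 51.4% in fast libraries, against 61.1% in parental libraries, and the calponin panel shows the dependence on batch.

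Whether a gene moved with its stretch of chromosome was described with the 20 nearest tested genes of at least 1 CPM, 10 on each side, by gene order in GENCODE release 29. TAGLN had a log2 fold change of -1.71, where its neighbours had a median of -0.31. Of the 20, 18 were called lower, as were 18 of the neighbours of TPM3, beside 31.5% of all genes tested. Shares of all genes tested include weaker genes than these neighbours. With a mean of at least 1 CPM required, 6101 of 16189 genes were called lower and 6129 higher. The neighbours of TPM4 had a median of -0.34 beside its own -0.73, and those of TAGLN2 had -0.23 beside its own -0.73. TPM1 was at -0.49 among neighbours with a median of 0.13, of which 10 were called higher and 7 lower (31.9% and 31.5% of all genes tested). In contrast, the neighbours of TPM3 and CNN3 had medians of -0.36 and -0.44, lower than the values of -0.16 for TPM3 and -0.36 for CNN3 themselves. For ACTN1 (-0.31), TPM2 (0.14), CNN2 (-0.06) and ACTN4 (0.00) the neighbours had medians of -0.15, 0.11, 0.19 and 0.06 in the same order. Gene copy number was not measured in these files, and its part in these values was not tested.

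**Figure D4:**
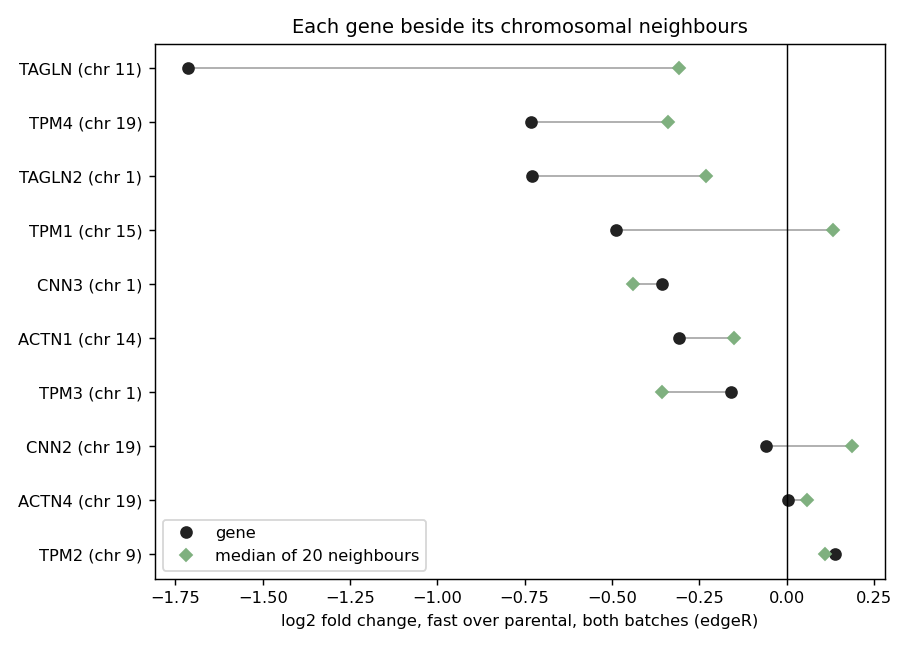
Log2 fold change over both batches, fast over parental (horizontal axis), of each gene (circles) and the median of its 20 chromosomal neighbours (diamonds). TAGLN (-1.71) lies far below the median of its neighbours (-0.31), TPM1 (-0.49) lies below a median above 0 (0.13), and CNN3 and TPM3 lie above theirs.

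Reads from a stretch where genes overlap can be counted for either gene, both or neither, since no source used here gives a strand setting for the counting. TPM1 overlaps the antisense gene TPM1-AS by 2070 exonic bases (16.1% of its merged exons), and TPM1-AS had 3412 counts over the 6 fast libraries and 4869 over the 6 parental libraries, against 28425 in fast and 38996 in parental libraries for TPM1. A second antisense gene, AC079328.2, overlaps TPM1 by 691 bases (5.37%) and had 3860 counts in fast and 5065 in parental libraries. TAGLN overlaps PCSK7 on the opposite strand by 446 bases (11.4%), and PCSK7 had 16388 counts in fast and 23303 in parental libraries, more than the 3251 in fast and 10550 in parental libraries of TAGLN. PCSK7 was thus also lower in fast libraries, by less than TAGLN. ACTN4 overlaps CAPN12 by 868 bases (14.2%), with 31636 CAPN12 counts in fast and 30301 in parental libraries. The pseudogene HMGN1P3 lies over 300 exonic bases (2.82%) of ACTN1 on the same strand, with 304 counts in fast and 606 in parental libraries, against 309763 in fast and 378274 in parental libraries for ACTN1. Which reads came from which partner cannot be told apart. Of 25 pseudogenes named after these genes, 5 averaged at least 1 CPM. TPM3P9 was the strongest, at 12.3 CPM in fast libraries and 12.3 CPM in parental libraries, or 1.96% of the counts of TPM3. TAGLN2P1 had 1.77 CPM in fast and 3.06 CPM in parental libraries. TPM3P6 had 2.02 CPM in fast and 1.70 CPM in parental libraries. TPM3P8 had 1.82 CPM in fast and 1.80 CPM in parental libraries. ACTN4P1 had 1.35 CPM in fast and 1.36 CPM in parental libraries.

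Other genes were taken from 9 lists: actins, their partners and regulators, SRF and its cofactors, and markers of other cell types. Of the 94 of them tested, 49 rose, 29 fell and 16 were not called, where 31.9% of all genes tested rose and 31.5% fell. No test compared these lists with the 10 genes or with each other. The actins themselves went both ways, with 3 of 5 higher and 2 lower. ACTB, the main cytoplasmic beta-actin, had 6118 CPM in fast and 4704 CPM in parental libraries (log2 fold change 0.38). ACTG1, cytoplasmic gamma-actin, had 2729 CPM in fast and 3641 CPM in parental libraries (-0.41). The smooth muscle alpha-actin ACTA2 was higher, at 4.85 CPM in fast libraries and 2.58 CPM in parental libraries (0.92), so it moved opposite to TAGLN, the other classic smooth muscle marker. The skeletal ACTA1 was higher too (0.42), while the second called lower was smooth muscle gamma-actin ACTG2, at 12 counts over all fast and 294 over all parental libraries (-4.51 ± 0.39 SE), a gene outside the rule for named genes and chosen after its values were seen. With a mean of at least 1 CPM required, 1 actin in place of 2 was counted as lower.

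Genes that work on the same filaments also went both ways. Among tropomyosin partners and filament-end caps, 4 of 11 rose and 4 fell, with a median log2 fold change of -0.00. The lower count was 2 when a mean of at least 1 CPM was required. The capping protein subunits CAPZA1, at 373 CPM in fast libraries and 210.3 CPM in parental libraries (0.82), and CAPZA2 (0.34) rose. The troponin TNNT1 rose too (0.53), while the capping subunit CAPZB was not called (-0.00). The tropomodulins, which cap pointed ends, went both ways. TMOD2 had 4.37 CPM in fast and 6.69 CPM in parental libraries (-0.61). TMOD3 had 125 CPM in fast and 107 CPM in parental libraries (0.22). TMOD4, at under 1 CPM, was lower (-1.06), and TMOD1 was not called (0.10). CAPZB, TMOD1, TMOD3 and TMOD4 were outside the rule for named genes and named after their values were seen. Among other actin crosslinkers and bundlers, 11 of 18 rose and 4 fell, with a median of 0.22. Their summed level was nevertheless lower, at 5919 to 6580 CPM in fast and 7008 to 7365 CPM in parental libraries (unscaled by TMM), with no overlap. The filamin FLNA, the one with most counts and named after its values were seen, had 1968 CPM in fast and 3106 CPM in parental libraries (-0.66). The lower sum rested on FLNA, as the mean levels of the other tested genes of the list added up to more in fast libraries. Fascin FSCN1, the bundler of filopodia, had 269 CPM in fast and 137 CPM in parental libraries (0.98), drebrin DBN1 had 384 CPM in fast and 123 CPM in parental libraries (1.65), and espin ESPN had 6.02 CPM in fast and 1.65 CPM in parental libraries (1.88). Plastin PLS3 fell, at 225 CPM in fast libraries and 427 CPM in parental libraries (-0.92).

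Of 22 alpha-actinin and LIM-domain partners tested, 14 rose and 5 fell, with a median of 0.27. MYPN (1.80), PDLIM4 (1.14), PDLIM2 (0.98) and SYNPO (0.98), all of which are known to bind alpha-actinin, had the largest changes among those called at a mean of at least 1 CPM. Of the severing and monomer-binding genes 10 of 19 rose and 7 fell (median 0.09). Gelsolin GSN had 35.5 CPM in fast and 15.4 CPM in parental libraries (1.22) and its relative CAPG had 384 CPM in fast and 210.2 CPM in parental libraries (0.87), both higher, as was profilin PFN2 (0.47), while advillin AVIL was lower (-0.85). The list of smooth muscle contractile genes, which counts the neuronal TAGLN3 among its higher genes, was split, 5 of 12 higher and 4 lower (median -0.03). Myosin light chain kinase MYLK had 84.8 CPM in fast and 27.5 CPM in parental libraries (1.64), TAGLN3 had 4.35 CPM in fast and 2.21 CPM in parental libraries (0.96), and the myosin light chain MYL9 had 51.9 CPM in fast and 75.0 CPM in parental libraries (-0.53). TAGLN3, the transgelin of neurons, therefore moved opposite to TAGLN and TAGLN2.

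SRF itself was lower in fast cells, at 88.6 CPM in fast libraries and 154 CPM in parental libraries, a log2 fold change of -0.80 ± 0.03 (SE; adjusted p = 1.87e-21), with -0.89 in batch 2 and -0.71 in batch 1. Of the 11 tested genes in the list of SRF and its cofactors 5 rose and 4 fell (median 0.06). Among its partners, MKL2 (-0.32) and ELK1 (-0.49) fell and ELK3 (0.35) rose. MKL1 moved opposite to MKL2, with a log2 fold change of 0.19 and a higher call in each batch. MKL1 was not picked by the rule for named genes and was added once its values were known. Of the 3 genes with a CArG box in the windows printed above, TPM4 and ACTN1 fell in both batches. CNN2 was called lower in batch 2 (a call lost in 5 of 18 alternatives) and not in batch 1 (-0.01, adjusted p = 0.839). TPM1, TPM3, TAGLN2 and CNN3, with no exact CArG box in their windows, fell in both batches as well. TPM2 and ACTN4, whose windows also held none, were not called lower in either batch, and TAGLN had no window. No binding was measured, and the part of SRF in these values was not tested.

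**Figure D5:**
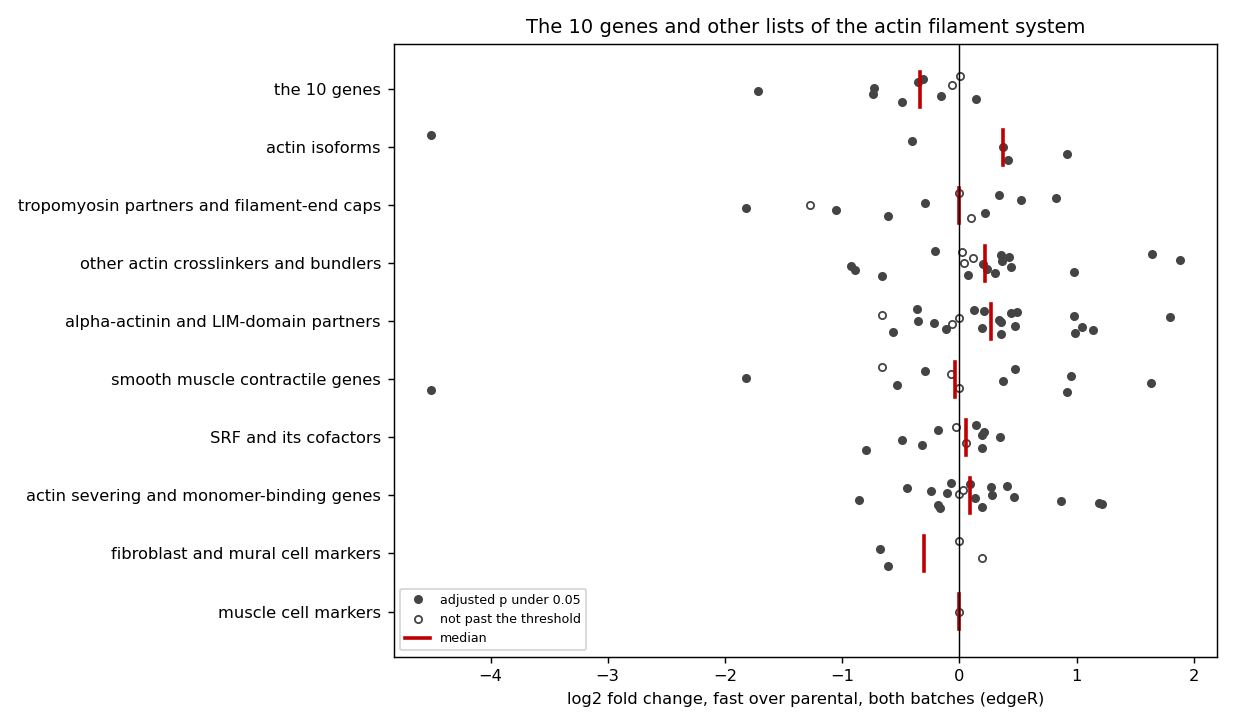
Log2 fold change over both batches, fast over parental (horizontal axis), of the 10 genes and of each tested gene in the 9 other lists, with filled points for an adjusted p under 0.05 and a line at each median. The median of the 10 genes is -0.33, and those of the lists of actin-system genes run from -0.03 to 0.38.

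Between 50% and 100% of the tested genes of each list with more than 1 of them were called, beside 63.4% of all genes. Markers of cells that are rich in TAGLN, TPM1 and TPM2 were low. Of 12 fibroblast and mural cell markers 4 could be tested, 2 fell and none rose, and their summed level was 18.8 to 22.1 CPM in fast and 26.4 to 30.6 CPM in parental libraries. The 2 that fell were COL1A1, at 9.32 CPM in fast libraries and 14.2 CPM in parental libraries (-0.61), and RGS5, at 2.76 CPM in fast libraries and 4.44 CPM in parental libraries (-0.68). DCN and LUM, which define fibroblasts, had 0 counts in all 12 libraries. Of 6 muscle cell markers only MYH11 could be tested, at 7.76 CPM in fast libraries and 7.76 CPM in parental libraries, and the muscle cofactor MYOCD had 0 counts. The summed muscle markers took 7.20 to 8.99 CPM in fast and 7.32 to 9.35 CPM in parental libraries, with no gap between the populations. The part of the fibroblast and mural markers that moved with TAGLN was not tested.

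The genes whose levels over the 12 libraries were most like those of TAGLN were DNAJC8, RPA2, FUNDC2, TPM4 and PRPS1, by Pearson correlation of log2 CPM (pseudocount 0.5) among 11275 genes of at least 5 CPM. All 5 had r = 0.996, as a description with no test, since the points share 2 populations and 2 batches. In all, 1196 genes had r above 0.95, so such likeness was common. Of the 5, TPM4 alone belongs to the set, and the others fell as well, by 1.13 on the log2 scale for RPA2, 1.01 for FUNDC2, 0.90 for DNAJC8 and 0.77 for PRPS1.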

How the data were processed

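Per the labels' protocols, a spin-column kit gave the RNA of cultured MDA-MB-231 cells, and libraries were standard Illumina ones. The authors deposited raw read counts per gene, not normalized, for 12 libraries. The submitters' processing notes name Trimmomatic 0.32, STAR 2.3.0e and featureCounts 1.4.4 with builds hg19 and GRCh37. Strand setting and treatment of reads with several matches are not given in the sources used here. Isoforms of a gene are summed in such counts, and near-identical copies could share reads.

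The counts were fitted in edgeR 4.0.16 under R 4.3.3, using TMM factors, the default low-count filter (minimum count 10, minimum total 15), and robust quasi-likelihood tests on all 22668 genes that passed. One model had population and an additive batch term. Another had 1 mean for each of the 4 groups (8 residual degrees of freedom) and gave effects within batches and their difference. P-values were Benjamini-Hochberg adjusted over all genes tested, with a threshold of 0.05. Fold changes (log2) divide fast by parental, and their SE comes from the F statistic. The steps were tested on simulated counts. Alternatives were RLE and upper-quartile factors, no filter, a mean of at least 1 CPM, DESeq2 1.42.0, a block for the replicate number, sums of the 3 libraries of a group, and each library left out.

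Exon lengths, overlaps and gene order came by gene ID from GENCODE 29 on GRCh38, another build than that of the counts, so no coordinates of it are given. Of the genes tested, 95.1% matched. Named genes were the 10 members, up to 4 called genes with the largest change in each list (mean of at least 1 CPM), the 5 most like TAGLN, and pseudogenes of at least 1 CPM. The members, lists and rules were chosen with earlier results of these data known. The members had 500 to 96975 counts in a library.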

Additional observations from a re-analysis of the deposited data

Results flagged for a closer look

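A difference of the effect (fast over parental) between batches was called for 8 of the genes named above, by edgeR's test of the difference itself, batch 2 minus batch 1. Over all genes tested, 5.4% were so called. ACTN1, the 1 member, had a difference of -0.17 (adjusted p = 0.00623), with a log2 fold change of -0.39 in batch 2 and -0.22 in batch 1. Among genes lower in fast cells, ACTG1 differed by -0.16 (adjusted p = 0.0116), PLS3 by -0.17 (adjusted p = 0.0114) and SRF by -0.18 (adjusted p = 0.0220), each lower still in batch 2. These 3 calls depended on settings: all were lost with RLE factors (adjusted p = 0.0709 for ACTG1, 0.0563 for PLS3 and 0.0787 for SRF) and with no filter (0.219 for ACTG1, 0.220 for PLS3 and 0.270 for SRF), and that of SRF also with upper-quartile factors, a mean of at least 1 CPM and DESeq2 (0.0586 to 0.0672). All 3 were also lost without fast batch 1 replicate 2, any 1 of the fast batch 2 libraries or parental batch 1 replicate 2. ACTG1 was lost too without parental batch 2 replicate 2, PLS3 without parental batch 2 replicate 3, and SRF when fast batch 1 replicate 1 was left out, or replicate 1 or 2 of parental batch 2. COL1A1 differed by 0.36 (adjusted p = 0.0362), being less low in batch 2 (-0.43) than in batch 1 (-0.80). It was lost under the replicate block (adjusted p = 0.0519) and when replicate 1 or 2 of fast batch 1, of parental batch 1 or of parental batch 2 was left out (0.0653 to 0.100). Among genes higher in fast cells, FSCN1 differed by -0.16 (adjusted p = 0.0307) and DBN1 by -0.28 (adjusted p = 4.60e-05), with 1.51 in batch 2 and 1.79 in batch 1. The call of DBN1 was kept in all 18 alternatives, while that of FSCN1 was lost under all 6 that keep every library (adjusted p = 0.0605 to 0.392) and without any 1 library other than fast batch 1 replicate 1, parental batch 1 replicate 3 and parental batch 2 replicate 1. MYLK differed by 0.23 (adjusted p = 0.0225), with 1.75 in batch 2 and 1.53 in batch 1, and was lost under the replicate block (0.0507) and when fast batch 1 replicate 1 (0.0713) was left out, or parental batch 2 replicate 1 (0.0786). None of the 8 changed direction between batches.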

How the results depend on the processing

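The calls of TPM1, TPM3, TPM4, TAGLN, TAGLN2, CNN3 and ACTN1 as lower were kept in all 19 alternatives over both batches and in all 18 within each batch. Under them TAGLN ranged from -1.77 to -1.68 over both batches and TPM3, the smallest, from -0.18 to -0.14. The 1 higher call, TPM2, fell away with upper-quartile factors, a mean of at least 1 CPM and summed libraries (0 members higher each), and the count ran from 0 to 1 when 1 library was left out. TPM2 was called higher in batch 1 under the replicate block (1 member), and leaving out 1 library gave 0 to 1 higher in batch 1 and 0 to 1 in batch 2. For the difference between batches, 1 member (TAGLN2) was called higher with upper-quartile factors, no filter, a mean of at least 1 CPM and DESeq2, and 0 members were called lower with no filter. Leaving out 1 library gave 0 to 1 members higher and 0 to 1 lower. Over all genes 396 were called higher and 827 lower for that difference. The counts were 575 and 522 with RLE factors, 612 and 527 with upper-quartile factors, 966 and 411 with no filter, 740 and 576 with a mean of at least 1 CPM, 679 and 624 with DESeq2, and 299 to 819 higher and 337 to 807 lower without 1 library. The cause was not tested. Same-numbered libraries did not deviate together (r of -0.11 to 0.09 in 6 pairs, 2 of them best with their own number). No pairing by number was thus seen, but these correlations cannot exclude one. Numbers are those of the titles. The column names of some batch 1 libraries carry others, which would leave replicate 2 of batch 1 unpaired. With the replicate block, 332 genes were called higher and 648 lower for the difference between batches. ACTN4, never called between the populations, changed sign in 5 settings. As shares of raw counts, TPM1 held 4.93% of its family in fast and 4.88% in parental libraries, TPM2 1.58% in fast and 1.01% in parental, TAGLN 2.72% in fast and 5.23% in parental, CNN2 33.9% in fast and 29.5% in parental, and ACTN1 37.8% in fast and 43.1% in parental libraries.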
